A study of Homo sapiens with 27 samples.

Results

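The genes described here encode the constitutive proteasome and the proteins that assemble or regulate it. They were chosen by symbol, as every row whose name begins with PSMA to PSMG followed by a digit, and the inducible immunoproteasome subunits PSMB8, PSMB9 and PSMB10 were left out. The rule found 43 of the 10470 genes in the table. By role they were 7 alpha and 7 beta subunits, which form the 20S core, and 19 genes of the 19S cap. The cap genes were 6 ATPases, 2 other subunits of the base (PSMD1 and PSMD2), 8 lid subunits and 3 chaperones of cap assembly (PSMD5, PSMD9 and PSMD10). The remaining 10 were the 4 chaperones of core assembly (PSMG1 to PSMG4), 5 activators or inhibitors (PSME1 to PSME4 and PSMF1) and PSMC3IP, a cofactor of meiotic recombination that is no proteasome subunit and shares only the start of its name.

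The proteasome degrades proteins that carry ubiquitin chains. Its core is a barrel of stacked rings in which the outer alpha rings gate the entrance and the inner beta rings hold the proteolytic sites, contributed by PSMB5, PSMB6 and PSMB7. The cap binds the ubiquitin chain, removes it, unfolds the substrate with its ring of ATPases and threads it into the core. Genes of core and cap are transcribed coordinately, and when proteasome activity is short the transcription factor NRF1 (gene NFE2L1), which pairs with small MAF proteins, raises them together through antioxidant response elements in their promoters.

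Transcripts were measured by amplicon sequencing (Ion AmpliSeq transcriptome panel) in DLD1, a line derived from a human colorectal carcinoma, collected 72 h after the cells received siRNAs, short duplexes that direct the cleavage of a matching mRNA. They targeted VPS37A, VPS37B and VPS37C, paralogous subunits of ESCRT-I, a complex that sorts ubiquitinated membrane proteins towards the lysosome. The 27 libraries fell into 9 groups of 3 replicates: untransfected cells (NT), cells given control siRNA (siCTRL), and cells given the siRNA against 1 paralog (siVPS37A, siVPS37B, siVPS37C), against a pair (siVPS37AB, siVPS37AC, siVPS37BC) or against all 3 (siVPS37ABC). Each paralog was targeted with a single siRNA sequence in a single line, so an effect of the sequence and an effect of the lost paralog cannot be told apart. The labels name several control siRNAs. Which of them each group received, and if single, double and triple knockdowns and siCTRL had the same total siRNA dose, is not given in the sources used here. Replicates are biological by their label, and each replicate number is its own batch there. No label says whether they were separate cultures, so the p-values measure the spread between these libraries.

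All values are in TPM (transcript abundance scaled to a fixed total per library), no read depth is known and all errors come from the replicates. Because each gene was read through its own amplicon, levels were compared between libraries and not between genes. VPS37A stood at 4.77, 6.06 and 6.57 TPM in siCTRL and between 0.146 and 0.593 TPM in the 12 libraries given its siRNA. VPS37B fell from 40.1 to 53.2 TPM in siCTRL to between 0.964 and 4.08 TPM, and VPS37C from 15.7 to 19.2 TPM to between 3.11 and 5.56 TPM. Every library thus matched its label for the VPS37 siRNAs. NT and siCTRL overlapped in each of these genes, so this check does not tell the controls apart. Of 10 markers of colorectal epithelium 9 were in the table, and their summed level was 7873 to 12634 TPM in each library. Markers of leukocytes (2 of 4 in the table), fibroblasts (1 of 5) and endothelium (1 of 4) summed to no more than 9.70 TPM for any list in any library, and their part in the results was not tested. The number that ends each library's description (called the library number below) differed between the knockdown libraries and the control libraries of replicates 1 and 2, and what it stands for is not given.

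Across all conditions the group means of the proteasome genes that passed the filter differed by less than 2-fold. The filter of a mean of at least 10 TPM passed 41 of the 43 genes and left out PSMD5 (mean 9.35 TPM) and PSMC3IP (mean 9.81 TPM). For the 41 genes, the ratio of the highest to the lowest of the 9 group means lay between 1.17 (PSMD6, a lid subunit) and 1.69 (PSMD13, another lid subunit), with a median of 1.38. It was under 1.5 for 30 of the 41 genes (73.2%), and for 3437 of all 6458 genes that passed the filter (53.2%). None of the 41 reached 2-fold, which 675 of all 6458 genes did. These shares were not matched for level. A mean of at least 100 TPM was reached by 1445 of the 6458 genes and by most of the 41. Of the core 12 of 14 genes stayed under 1.5-fold and of the cap 13 of 18. Each difference given below is on the log2(TPM + 1) scale, followed by its standard error (SE) as fitted by limma to the 27 libraries with 3 in every group, and "called" means a Benjamini-Hochberg adjusted p under 0.05 over all 6458 genes of that comparison.

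**Figure D1:**
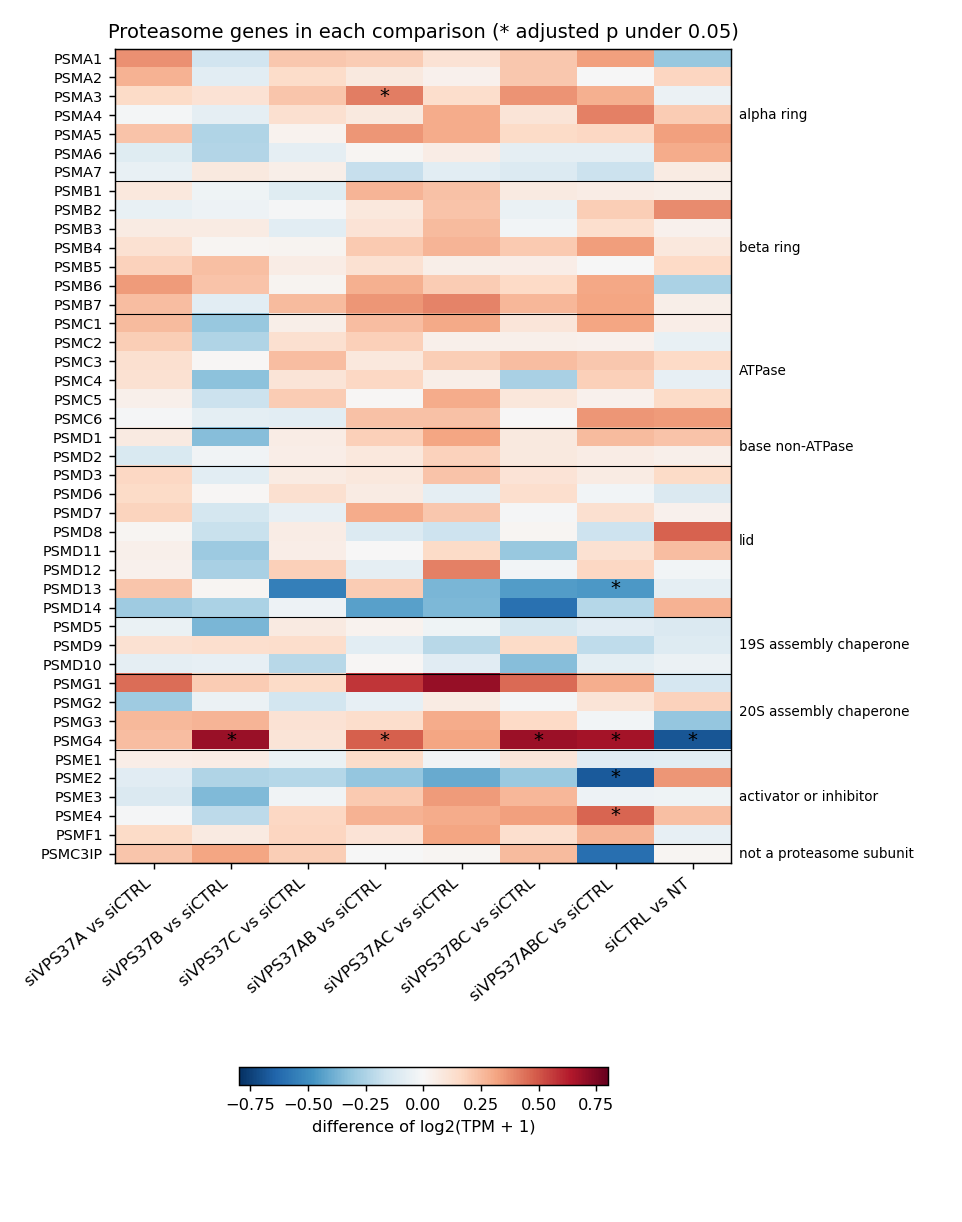
Difference of log2(TPM + 1) for each of the 43 genes (rows, grouped by role) in the 7 knockdowns against siCTRL and in siCTRL against NT (columns), with asterisks on calls at an adjusted p under 0.05 and means of 3 libraries per group. Most cells are pale, and the asterisks fall on PSMG4, PSMD13, PSME2, PSME4 and PSMA3; PSMD5 and PSMC3IP come from the model without the filter on low values.

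Against siCTRL, 5 of the 41 genes (12.2%) were called in at least 1 of the 7 knockdowns, and 26.5% of all genes tested were. Over all 11 comparisons, with those between the controls and over the transfected groups added, 12 of the 41 were called (29.3%), against 45.1% of all genes. No proteasome gene was called in siVPS37A (background 1.83% of genes, 1.19% up and 0.635% down), siVPS37C (0.496%, of which 0.387% down) or siVPS37AC (4.4%, 3.07% up and 1.33% down) by limma. In these groups 2, 1 and 11 of the 41 had an unadjusted limma p under 0.05, as did 854, 522 and 1135 of all 6458 genes. In siVPS37B the assembly chaperone PSMG4 was the single call (background 1.72%, 0.929% up and 0.79% down), and in siVPS37BC again PSMG4 alone (1.29%, 0.635% up and 0.65% down). In siVPS37AB PSMG4 and the alpha subunit PSMA3 rose (2 of 41, 4.88%, against a background of 14.8%, of which 3.61% down). In siVPS37ABC PSMG4 and the activator PSME4 rose and PSMD13 and the activator subunit PSME2 fell (4 of 41, 9.76%), where 21.9% of all genes were called (8.32% down). The share of proteasome genes called was thus below the background in both knockdowns with many changed genes. The median difference over the 41 genes was 0.12 in siVPS37A, -0.07 in siVPS37B, 0.06 in siVPS37C, 0.12 in siVPS37AB, 0.20 in siVPS37AC, 0.09 in siVPS37BC and 0.12 in siVPS37ABC, and over all genes 0.05, -0.02, 0.00, 0.07, 0.07, 0.02 and 0.03 in the same order. These comparisons share the siCTRL libraries.

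With the replicate number as a block, the calls against siCTRL numbered 0 in siVPS37A (background 6.33%), 1 in siVPS37B (9.4%), 7 in siVPS37ABC (background 33.1%), 3 in siVPS37AC (11.8%), 3 in siVPS37BC (4.38%) and 1 in siVPS37C (2.07%). The genes added by the block were the core subunits PSMB4 (0.34) and PSMB7 (0.32) and the inhibitor PSMF1 (0.27) in siVPS37ABC, PSMB7 (0.40), PSMF1 (0.31) and PSMD13 (-0.37) in siVPS37AC, PSMD13 (-0.45) and PSMD14 (-0.60) in siVPS37BC, and PSMD13 (-0.55) in siVPS37C. It also added PSMB7 (0.35) in siVPS37AB, which made 3 calls (25.6%).

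In the alpha ring, which gates the core, PSMA3 was the gene called against siCTRL. Its level was 25.8, 28.1 and 24.8 TPM in siCTRL and 38.8, 32.1 and 34.6 TPM in siVPS37AB. All 3 siVPS37AB libraries lay above all siCTRL libraries, and the difference was 0.41 ± 0.13 (adjusted p = 0.0323). In siVPS37BC PSMA3 was 33.4, 34.4 and 34.1 TPM, also above every siCTRL library, with a difference of 0.36 that was not called. The PSMA3 call ended without replicate 1 or 3 of siVPS37AB or replicate 1 or 3 of siCTRL (adjusted p 0.0704 to 0.153), with a term for the library number (0.186) and with quantile normalization (0.156). In the triple knockdown the alpha subunits ranged from PSMA7 (-0.17 ± 0.12) to PSMA4 (0.40 ± 0.26), neither called. PSMA4 was 218, 384 and 460 TPM in siCTRL and 372, 474 and 502 TPM in siVPS37ABC, so that its siCTRL libraries spread as widely as the groups differed.

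In the beta ring no gene was called against siCTRL. PSMB5, which carries the chymotrypsin-like activity, was 436, 512 and 444 TPM in siCTRL and 457, 479 and 449 TPM in siVPS37ABC. The groups overlapped, and the difference was -0.00 ± 0.14 (95% confidence interval -0.29 to 0.28). PSMB6, the caspase-like subunit, was 424, 577 and 450 TPM in siCTRL and 625, 616 and 543 TPM in siVPS37ABC (0.31 ± 0.19, adjusted p = 0.266). PSMB7, the trypsin-like subunit, was 505, 373 and 383 TPM against 586, 433 and 550 TPM (0.32 ± 0.17, adjusted p = 0.201), and was called with the replicate block (adjusted p = 0.0238). The largest beta difference in the triple knockdown was that of PSMB4, a structural subunit, at 1294, 1110 and 974 TPM in siCTRL and 1543, 1297 and 1410 TPM in siVPS37ABC. All 3 triple knockdown libraries lay above the siCTRL libraries, and the difference of 0.34 ± 0.14 was not called (adjusted p = 0.0757; 0.0381 with the block).

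The immunoproteasome counterparts that replace PSMB6, PSMB7 and PSMB5 after interferon did not share one pattern. PSMB9 was 32.9, 48.8 and 60.5 TPM in siCTRL and 17.4, 22.1 and 22.0 TPM in siVPS37ABC, below every siCTRL library (-1.14 ± 0.20, adjusted p = 0.000128), while PSMB6 stood at the values above. PSMB9 was also lower over the groups given the VPS37C siRNA (-0.77 ± 0.10). In NT it was 24.6, 30.5 and 34.4 TPM, so NT overlapped siCTRL (siCTRL against NT 0.62 ± 0.20, not called). NT also overlapped siVPS37C (22.9, 34.9 and 36.6 TPM) and siVPS37AC (30.5, 30.8 and 28.8 TPM). The triple knockdown lay below every NT library. PSMB10 (-0.27 ± 0.18) and PSMB8 (-0.21 ± 0.15) were not called in the triple knockdown.

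Averaged over genes, the core stood higher in some knockdowns than in either control. The mean log2 level of the 14 core genes, set against the siCTRL mean, was -0.06, 0.04 and 0.01 in the siCTRL libraries and -0.26, 0.03 and -0.04 in the NT libraries. It was 0.19, 0.14 and 0.06 in siVPS37A, 0.16, 0.12 and 0.23 in siVPS37AB, 0.24, 0.15 and 0.15 in siVPS37AC, 0.12, 0.07 and 0.14 in siVPS37BC and 0.14, 0.14 and 0.21 in siVPS37ABC. Every library of these 5 groups lay above every control library. In siVPS37B (-0.03, -0.04 and 0.02) and siVPS37C (0.01, 0.03 and 0.15) the libraries overlapped siCTRL. No library of the 5 higher groups shared its library number with the siCTRL library of its replicate. In replicate 3 siVPS37B and siVPS37C did share that of siCTRL (603). The part of the library number in the core means was not tested. The group means of 0.11 to 0.18 stand beside means of 0.01 to 0.05 over the 1445 genes whose mean reached 100 TPM in the same 5 groups. The core genes PSMA3 (mean 30.3 TPM) and PSMA5 (67.6 TPM) lie below that level. In bulk RNA, a change in the number of cells of one state and a change in the RNA of each cell cannot be told apart.

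The change in the median level of the 14 genes was 0.03 in siVPS37BC and 0.11 in siVPS37ABC. The median of the 14 genes' own differences was 0.13 and 0.18 in these groups. Over the 1445 genes the median of the genes' own differences was 0.03 and 0.00.

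The 18 cap genes gave smaller means, and their libraries overlapped those of siCTRL in all 7 knockdowns. The cap mean was 0.07 in siVPS37A, siVPS37AB and siVPS37AC, 0.04 in siVPS37ABC, 0.03 in siVPS37C, -0.05 in siVPS37BC and -0.14 in siVPS37B. The change in the median level of the cap genes was 0.30 in siVPS37AC, 0.18 in siVPS37ABC and 0.04 in siVPS37BC. It was not smaller than the change in the median level of the core genes in these groups. The lowest cap libraries were replicate 1 of NT at -0.25 and replicates 1 and 2 of siVPS37B at -0.25 and -0.19, and replicate 1 of NT was also the lowest in the core (-0.26). Against the siCTRL library of the same replicate number, the cap of siVPS37B was lower in all 3 pairs (-0.15, -0.20 and -0.09). The difference of core and cap changes was 0.06 in siVPS37A, 0.13 in siVPS37B, 0.03 in siVPS37C, 0.10 in siVPS37AB, 0.10 in siVPS37AC, 0.16 in siVPS37BC and 0.12 in siVPS37ABC. All 3 libraries lay above all siCTRL libraries in siVPS37AB and siVPS37BC. Against the siCTRL library of the same number the difference was above 0 in 3 of 3 pairs in every knockdown but siVPS37C (2 of 3). With the median level over genes in each library in place of the mean, the difference was -0.04, 0.02, -0.09, 0.02, -0.09, -0.01 and -0.06 in the same order of groups. That median follows the genes of middle level. The median of the genes' own differences was 0.14, -0.04, 0.04, 0.16, 0.22, 0.13 and 0.18 in the core, in the same order. In the cap it was 0.10, -0.15, 0.06, 0.09, 0.17, 0.03 and 0.06. By this median the core stood above the cap in every knockdown but siVPS37C, so the sign depended on the summary used.

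**Figure D2:**
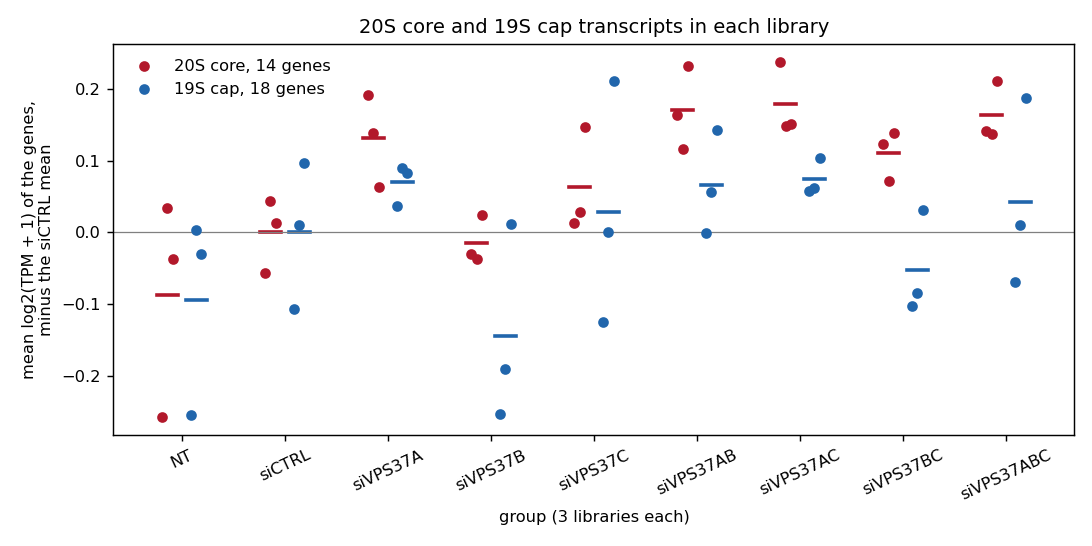
Mean log2(TPM + 1) of the 14 core genes (red) and the 18 cap genes (blue) in each library (points), minus the siCTRL mean, with a bar at each group's mean of 3 libraries. The red points of siVPS37A, siVPS37AB, siVPS37AC, siVPS37BC and siVPS37ABC all sit above the red points of siCTRL and NT, while the blue points of every knockdown overlap those of siCTRL.

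Around the group means, cap genes moved together more than core genes did. Over the 27 libraries the median correlation of deviations from the group means was 0.27 for the 153 pairs of cap genes, 0.05 for the 91 pairs of core genes and 0.12 for the 252 pairs of a core and a cap gene. It was 0.06 for all pairs of tested genes. PSMB6 had the lowest median correlation with the cap (-0.40), and PSME2 and PSMA6 the highest outside it (both 0.45). The libraries share batches and library totals, so these correlations are a description only.

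In the 19S base no ATPase was called against siCTRL. In the triple knockdown all 6 ATPases had differences above 0, from PSMC5 (0.03 ± 0.13) to PSMC6 (0.35 ± 0.19, adjusted p = 0.201). PSMC6 was 206, 182 and 237 TPM in siCTRL and 255, 239 and 305 TPM in siVPS37ABC, so that the triple knockdown libraries lay above those of siCTRL. The scaffold subunit PSMD1 was 142, 128 and 144 TPM against 153, 149 and 195 TPM (0.25 ± 0.15, adjusted p = 0.238), and PSMD2, its neighbour in the base, 86.8, 78.6 and 86.6 TPM against 79.5, 78.0 and 108 TPM (0.06 ± 0.13).

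In the lid, PSMD13 followed the VPS37C siRNA. It was 118, 124 and 130 TPM in siCTRL and 105, 137 and 154 TPM in NT. With VPS37C siRNA it was 67.3, 86.8 and 103 TPM in siVPS37C, 86.4, 96.3 and 106 TPM in siVPS37AC, 82.7, 86.2 and 104 TPM in siVPS37BC and 76.8, 95.8 and 98.7 TPM in siVPS37ABC. Over the transfected groups the 12 libraries with this siRNA ran from 67.3 to 106 TPM and the 12 without it from 114 to 153 TPM, with no overlap. Of all 6458 genes, 0.325% lay wholly below in this way, and PSMD13 was the one proteasome gene among them. The difference over these groups was -0.57 ± 0.08 (adjusted p = 1.5e-05), -0.66, -0.56 and -0.47 within replicates 1, 2 and 3.

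Against siCTRL alone PSMD13 was called in the triple knockdown (-0.46 ± 0.16, adjusted p = 0.0342) and not in siVPS37C (-0.55 ± 0.16, adjusted p = 0.137), siVPS37AC (-0.37, 0.206) or siVPS37BC (-0.45, 0.207). With the replicate block it was called in all 4 (adjusted p 0.00244, 0.0187, 0.0106 and 0.000988 for siVPS37C, siVPS37AC, siVPS37BC and siVPS37ABC). The triple knockdown call ended without its replicate 1 (adjusted p = 0.166) or without replicate 1, 2 or 3 of siCTRL (0.0549 to 0.102), and with a term for the library number the difference was -0.25 (adjusted p = 0.170). SIRT3, which neighbours PSMD13 and was looked at after its values were seen, was 6.49, 5.66 and 9.04 TPM in siCTRL and 5.54, 6.06 and 7.76 TPM in siVPS37C. It was 6.37, 7.27 and 5.33 TPM in siVPS37AC, 5.97, 7.01 and 7.57 TPM in siVPS37BC and 4.17, 5.70 and 5.03 TPM in siVPS37ABC. The siVPS37ABC group mean of SIRT3 was the lowest of all groups, and its libraries overlapped those of siCTRL.

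The other lid subunits were not called in any knockdown against siCTRL. PSMD12, a lid subunit of structural role, had a difference of 0.17 ± 0.20 in the triple knockdown. PSMD14, the deubiquitinase that removes the chain, was 243, 313 and 294 TPM in siCTRL and 143, 189 and 236 TPM in siVPS37BC, below every siCTRL library. This difference of -0.60 ± 0.24 was not called (adjusted p = 0.301) and was called with the replicate block (0.0467). In NT PSMD14 was 222, 246 and 230 TPM, which overlapped siVPS37BC, and siCTRL had its highest group mean. PSMD6, with the smallest ratio of group means, had libraries between 187 and 262 TPM.

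Of the chaperones of cap assembly, PSMD9 (-0.20 ± 0.13) and PSMD10 (-0.08 ± 0.15) were not called in the triple knockdown. PSMD5, below the filter, was 11.5, 6.47 and 11.7 TPM in siCTRL and 9.22, 7.86 and 9.82 TPM in siVPS37ABC. PSMC3IP was 9.33, 7.82 and 10.6 TPM against 7.34, 4.12 and 6.07 TPM (-0.60 ± 0.25, adjusted p = 0.0910 in the model without the filter).

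Among the chaperones of core assembly, PSMG4 was called in 4 of the 7 knockdowns against siCTRL, and in none of these 4 when NT was the reference. PSMG4 forms a heterodimer with PSMG3 that helps the alpha ring to assemble. It was 52.9, 53.2 and 52.4 TPM in siCTRL (52.8 ± 0.432, SD) and 89.9, 73.2 and 95.4 TPM in NT (86.1 ± 11.6, SD). The siCTRL libraries were almost equal and lay below every NT library, and the difference was -0.69 ± 0.15 (adjusted p = 0.00814), the only proteasome call between the controls (background 3.17%, of which 2.17% down).

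In the knockdowns PSMG4 was 89.9, 86.1 and 81.4 TPM in siVPS37B, 61.0, 85.2 and 77.3 TPM in siVPS37AB, 89.7, 80.5 and 86.5 TPM in siVPS37BC and 97, 84.8 and 73.4 TPM in siVPS37ABC. All of these libraries lay above the siCTRL libraries. The differences from siCTRL were 0.69 ± 0.15 in siVPS37B (adjusted p = 0.0149), 0.48 ± 0.15 in siVPS37AB (0.0289), 0.68 ± 0.15 in siVPS37BC (0.0139) and 0.67 ± 0.15 in siVPS37ABC (0.00159). With NT as the reference the same 4 differences were 0.00, -0.21, -0.00 and -0.02, and none was called (adjusted p 0.350 to 0.996). Without VPS37B siRNA PSMG4 was 68.6, 67.3 and 53.6 TPM in siVPS37A, 66.1, 47.4 and 58.3 TPM in siVPS37C and 67.8, 59.2 and 71.6 TPM in siVPS37AC.

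Over the transfected groups PSMG4 had a median of 85.0 TPM in the 12 libraries with VPS37B siRNA (61.0 to 97) and 58.7 TPM in the 12 without it (47.4 to 71.6). Replicate 1 of siVPS37AB was the one library with the siRNA that overlapped the others. This difference of 0.46 ± 0.07 (adjusted p = 0.000112) was the only call of a proteasome gene for VPS37B siRNA (background 16.2%, 8.69% up and 7.54% down), was 0.38, 0.57 and 0.44 within replicates 1, 2 and 3, and became 1 of 4 calls with the replicate block (background 28.8%), beside PSMA3 (0.16), PSMC5 (-0.14) and PSMD12 (-0.20). Without replicate 1 of siVPS37AC or replicate 3 of siVPS37B there were 2 calls for VPS37B siRNA. The single calls were less stable: that of siVPS37B ended without its replicate 1 or 2 or replicate 1 or 3 of siCTRL (adjusted p 0.0546 to 0.0834), that of siVPS37AB without its replicate 2 or 3 or any siCTRL replicate (0.0674 to 0.145), that of siVPS37BC without its replicate 1 or 3 or any siCTRL replicate (0.0511 to 0.0879), and that of siCTRL against NT without replicate 3 of NT (0.0554). A term for the library number ended those of siVPS37B (0.53, adjusted p = 0.165) and siVPS37AB (0.52, 0.0618), and quantile normalization that of siVPS37AB (0.42, 0.0654). A fit to the compared groups alone ended those of siVPS37B (0.0784), siVPS37AB (0.0502) and siCTRL against NT (0.0536).

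PSMG1, which pairs with PSMG2 in the first step of core assembly, was 211, 74.3 and 144 TPM in siCTRL, where replicate 2 was the lowest of all 27 libraries. It was 246, 210 and 187 TPM in siVPS37AC (0.69 ± 0.29, adjusted p = 0.193), and its differences in siVPS37AB (0.57) and siVPS37A (0.44) were not called either. PSMG3, the partner of PSMG4, was 99.9, 104 and 122 TPM in siCTRL and 118, 97.1 and 106 TPM in siVPS37ABC (-0.02 ± 0.18).

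Among the activators PSME4 and PSME2 changed in opposite directions in the triple knockdown. PSME4 encodes PA200, an activator that docks on the core in place of the cap. It was 32.4, 35.3 and 35.3 TPM in siCTRL, 29.7, 30.6 and 26.5 TPM in NT and 46.4, 49.7 and 47.1 TPM in siVPS37ABC. The triple knockdown libraries were the 3 highest of all 27, and the difference from siCTRL was 0.46 ± 0.12 (adjusted p = 0.00566).

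PSME4 was also above every siCTRL library in siVPS37AB (40.7, 39.1 and 45.7 TPM), siVPS37AC (44.9, 43.3 and 38.9 TPM) and siVPS37BC (42.2, 44.6 and 43.1 TPM), where differences of 0.28, 0.29 and 0.33 were not called. In siVPS37B it was 29.8, 28.8 and 30.0 TPM, below siCTRL (-0.21 ± 0.12, not called). It rose with VPS37C siRNA over the transfected groups (0.30 ± 0.06, adjusted p = 0.00132, and 0.31, 0.29 and 0.30 within replicates 1, 2 and 3). It also rose with VPS37A siRNA (0.19 ± 0.06, adjusted p = 0.0202), a call that ended with quantile normalization (0.11, adjusted p = 0.181).

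PSME2 encodes a subunit of the interferon-inducible activator PA28, whose other subunit is PSME1. It was 240, 273 and 270 TPM in siCTRL and 173, 165 and 152 TPM in siVPS37ABC, with no overlap (-0.67 ± 0.18, adjusted p = 0.00933). NT spread from 138 to 312 TPM and enclosed the triple knockdown, and with NT as the reference the difference was -0.32 (adjusted p = 0.212). PSME1 was 146, 146 and 139 TPM in siCTRL and 132, 131 and 140 TPM in siVPS37ABC (-0.09 ± 0.15). PSME3, the nuclear activator PA28gamma, and PSMF1, the inhibitor PI31, were not called against siCTRL.

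**Figure D3:**
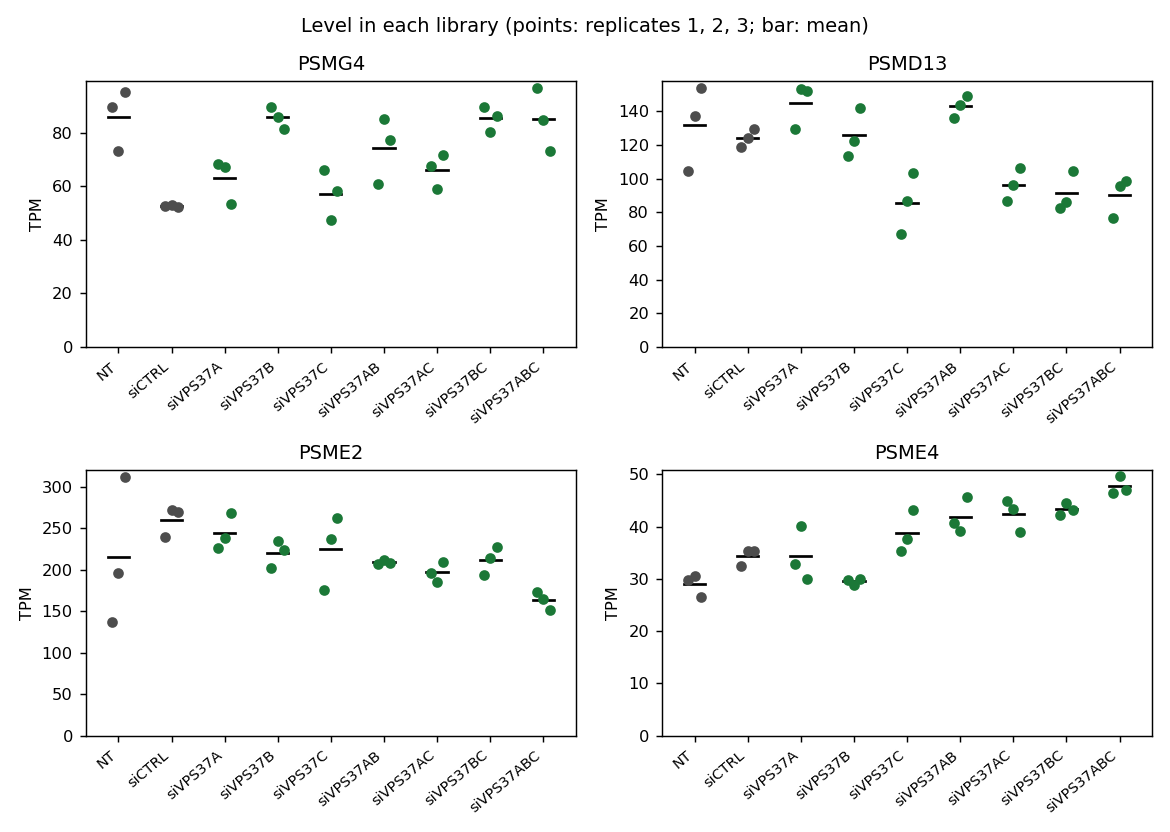
TPM of PSMG4, PSMD13, PSME2 and PSME4 in each library (points, replicates 1 to 3 from left to right) with a bar at the group mean, controls in grey and knockdowns in green, each axis starting at 0. PSMG4 is low in siCTRL, siVPS37A, siVPS37C and siVPS37AC, PSMD13 is low in the 4 groups with VPS37C siRNA, and in siVPS37ABC PSME2 is at its lowest group mean and PSME4 at its highest.

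With 12 libraries on each side, the siRNA against VPS37A gave the most calls. Averaged over the 4 transfected groups with it and the 4 without it, 7 of the 41 genes rose and 1 fell (8 of 41, 19.5%), against 29.1% of all genes (20.9% up and 8.13% down). Differences were above 0 for 33 of the 41 genes (80.5%) and for 61.4% of all genes, and their median was 0.13, against 0.06 for all genes. By role the calls were 1 of 7 alpha, 1 of 7 beta, 2 of 6 ATPase, 1 of 2 other base, 1 of 8 lid, 1 of 2 cap chaperone and 1 of 5 activator genes. Core (2 of 14, 14.3%) and cap (5 of 18, 27.8%, of which PSMD9 fell) were not above the share of all genes. The replicate block gave 16 calls, 15 up and 1 down, where 40.5% of all genes were called. It added PSMA1 (0.18), PSMB1 (0.18), PSMB4 (0.17), PSMB7 (0.22), PSMC6 (0.24), PSMD11 (0.22), PSMD13 (0.14) and PSMF1 (0.12). The subunits PSMA2, PSMB2, PSMC2 and PSMC3 were called in none of the 11 comparisons, with or without the block.

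The genes that rose were PSMC1 (0.32 ± 0.10, adjusted p = 0.0225), PSMA5 (0.28 ± 0.09, 0.0173), PSMD1 (0.26 ± 0.07, 0.0105), PSMD7 (0.26 ± 0.07, 0.00732), PSMC4 (0.25 ± 0.08, 0.0213), PSME4 (given above) and PSMB3 (0.15 ± 0.06, 0.0381), and PSMD9 fell (-0.21 ± 0.07, 0.0215). PSMC1 and PSMC4 are ATPases of the ring that unfolds substrates, and PSMD7 is the lid subunit that pairs with PSMD14. The libraries overlapped for all 8. PSMC1 ran from 108 to 143 TPM with the siRNA (median 125) and from 73.6 to 142 TPM without it (median 97.5). PSMD7 had medians of 185 and 159 TPM, and PSMA5 of 77.9 and 63.1 TPM. PSMD9, a chaperone of the base, had a median of 49.8 TPM with the siRNA and 57.8 TPM without it.

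All 8 differences had the same sign within replicates 1, 2 and 3, and all but that of PSMA5 were smallest in the third. For PSMD1 they were 0.33, 0.36 and 0.08, for PSMB3 0.22, 0.20 and 0.04 and for PSMD9 -0.28, -0.31 and -0.03. With a term for the library number 7 of the 8 genes were still called, and 14 of the 41 in all. The share of all genes called with that term is not given here, so the 14 are not set against a background. PSMB3 lost its call in 14 of 24 single omissions (adjusted p 0.0515 to 0.0732) and with a term for the library number (0.125). PSMC1 did without replicate 1 of siVPS37BC (0.0501), and PSMA5, PSMB3 and PSMC1 did with quantile normalization (0.0655, 0.0646 and 0.0652).

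**Figure D4:**
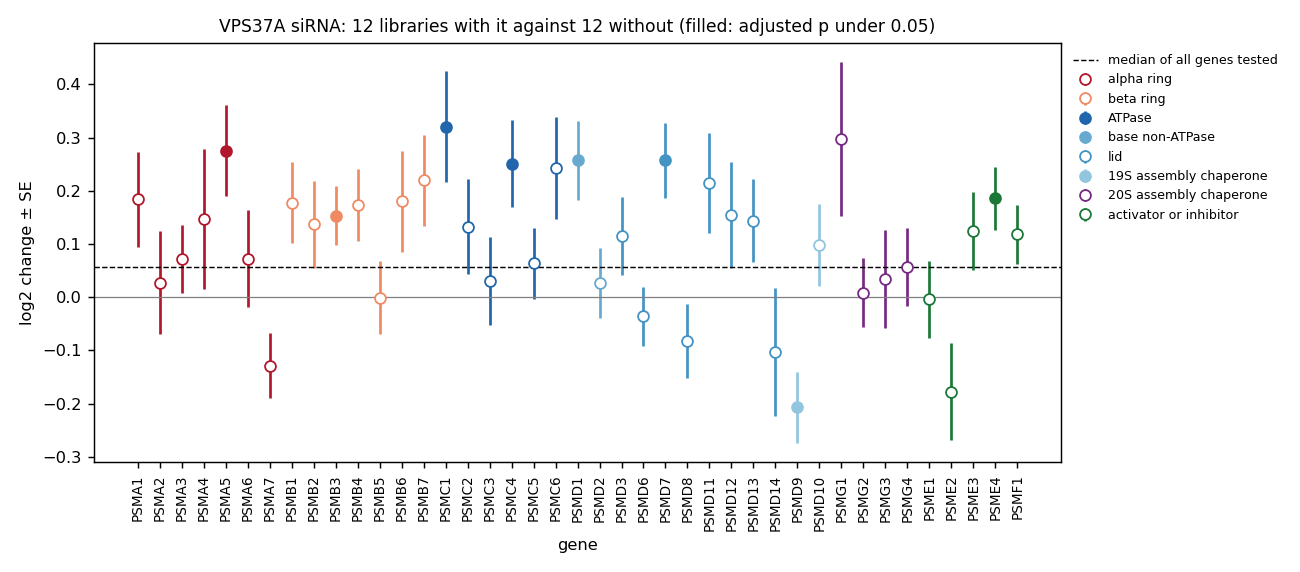
Difference of log2(TPM + 1) with its SE for the 41 genes that passed the filter, as the mean of the 12 libraries with VPS37A siRNA minus that of the 12 without it, coloured by role. Filled points are called (7 above 0 and PSMD9 below), and the dashed line marks the median of all genes at 0.06.

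For VPS37C siRNA the calls were PSME4 up and PSMD13 down (2 of 41, 4.88%, against a background of 10.5%, of which 4.99% up). With the replicate block there were 9, 7 up and 2 down, where 20.8% of all genes were called. The added genes were PSMB7 (0.18), PSMC5 (0.19), PSMD1 (0.20), PSMD12 (0.26), PSME3 (0.20), PSMF1 (0.14) and PSME2 (-0.24). Without replicate 3 of siVPS37A there were 4 calls. Between the controls the block gave 2 calls (background 8.86%), PSMG4 and PSMD8 (0.47), and there were also 2 without replicate 1 of siCTRL or replicate 2 of NT.

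Promoter sequences were set beside the VPS37A result as a description. RefSeq promoters (GRCh38.p14, 250 bases before to 50 after the annotated start) were found for 38 of the 43 genes. The antioxidant response element was searched as TGACNNNGC on both strands. It was present in 14 of the 38 promoters (36.8%) and in 16.1% of all 27305 promoters. The share was 36.8% of the 19 cap genes, 20% of the 10 core genes with a promoter and 55.6% of the other 9. Of the 8 genes called for VPS37A siRNA 5 held it (PSMB3, PSMC4, PSMD1, PSME4 and PSMD9, which fell) and PSMA5, PSMC1 and PSMD7 did not. Of the other 30 genes 9 held it. A part of the element in the VPS37A differences was not tested. The CCAAT box, searched on both strands as CCAAT, was in 50% of the 38 promoters and 39.7% of all.

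The stretches that hold the element in those 5 promoters are shown with the element in capitals, in the direction of the gene, so that an element on the opposite strand reads as the reverse complement.
PSMB3: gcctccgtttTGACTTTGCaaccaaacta
PSMC4: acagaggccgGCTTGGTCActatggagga
PSMD1: gcggcctgaggaggcgacTGACTGAGCag
PSMD9, first: cgctactcctGCCGGGTCAccacaggcgc
PSMD9, second: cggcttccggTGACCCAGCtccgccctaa
PSME4: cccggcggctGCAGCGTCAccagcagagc
They lie at chr17:38752627-38752655 (plus strand), chr19:39971182-39971210 (plus), chr2:231056888-231056916 (plus), chr12:121888631-121888659 and chr12:121888678-121888706 (both plus) and chr2:53971009-53971037 (minus). The first base of the element is 104 bases before the start in PSMB3, 149 and 102 bases before it in PSMD9 and 34 bases before it in PSME4, and it lies after the start in PSMC4 and PSMD1. Among these 5 promoters PSMD9 is the one with 2 elements (PSMD3, not called for VPS37A siRNA, also has 2), and its 250 bases before the start (chr12:121888540-121888789) are shown whole for their spacing.
PSMD9: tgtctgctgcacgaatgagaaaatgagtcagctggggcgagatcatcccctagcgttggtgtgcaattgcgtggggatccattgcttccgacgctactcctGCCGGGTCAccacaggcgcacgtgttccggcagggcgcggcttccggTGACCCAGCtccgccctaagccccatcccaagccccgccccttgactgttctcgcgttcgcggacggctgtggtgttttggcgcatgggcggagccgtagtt
A match of letters is a description and shows no binding.

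Genes linked to proteasome transcription, not subunits themselves, were taken from a fixed list of 11, of which 10 were in the table and 7 passed the filter. The 7 were NFE2L1, MAFG, MAFK, SYVN1, AKIRIN2, NFE2L2 and KEAP1. The list is wider than NRF1, as NFE2L2 encodes another factor (NRF2) and KEAP1 its regulator. In the triple knockdown 3 of the 7 rose and none of the 7 fell (median 0.57, against 0.03 for all genes, of which 13.6% rose). Listed genes below the filter went both ways. NGLY1 was 11.2, 8.95 and 9.81 TPM in siCTRL and 4.10, 4.77 and 5.82 TPM in siVPS37ABC, with no overlap. SEL1L was 5.23, 5.56 and 6.00 TPM against 12.1, 15.1 and 13.1 TPM. DDI2 was at most 0.487 TPM in any library. NFE2L1 was 45.3, 36.1 and 35.0 TPM in siCTRL and 67.7, 48.3 and 70.5 TPM in siVPS37ABC, above every siCTRL library (0.66 ± 0.20, adjusted p = 0.0164). In NT replicates 2 and 3 stood at 39.8 and 43.9 TPM and replicate 1 lay above the lowest triple knockdown library, so these groups overlapped, and the median of the 7 genes was -0.20 in siCTRL against NT, with none called. MAFG, a small MAF partner, was 13.5, 17.9 and 13.6 TPM against 39.0, 35.4 and 28.4 TPM (1.14 ± 0.17, adjusted p = 2.2e-05). MAFK, another partner, had a difference of 1.08 ± 0.20 (adjusted p = 0.000328).

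For VPS37A siRNA 6 of the 7 rose (median 0.38), where 20.9% of all genes did: NFE2L1 (0.48), MAFG (0.82), MAFK (0.72), SYVN1 (0.38), AKIRIN2 (0.35), which carries proteasomes into the nucleus, and NFE2L2 (0.25). Single VPS37A knockdown libraries held NFE2L1 at 73.3, 47.2 and 60.3 TPM, above every siCTRL library, and that difference of 0.61 ± 0.20 was not called (adjusted p = 0.120). For VPS37B siRNA MAFG (0.50) and MAFK (0.46) rose, where 8.69% of all genes did, and for VPS37C siRNA none of the 7 was called. MAFG was highest in siVPS37AB at 41.5, 36.6 and 43.8 TPM.

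Partners of the proteasome outside the symbol rule gave 2 rises and 1 fall among 11 tested genes in the triple knockdown (median 0.03), where 21.9% of all genes were called. ZFAND5, which binds the proteasome and stimulates it, was 89.0, 93.3 and 84.0 TPM in siCTRL and 143, 190 and 213 TPM in siVPS37ABC, with no overlap (1.01 ± 0.18, adjusted p = 0.000233). UBE3C, a ubiquitin ligase of the cap, rose (0.42 ± 0.14, adjusted p = 0.0366), and PITHD1 fell (-0.52 ± 0.13, adjusted p = 0.00559). For VPS37A siRNA ZFAND5 (0.57), ZFAND2A (0.60) and UBE3C (0.26) rose and PITHD1 (-0.23) fell, among 11 tested genes. Of all genes 29.1% were called there, 20.9% up and 8.13% down.

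In the lists that follow, the share called in the triple knockdown was below that of all genes. Of 9 tested genes for ubiquitin and its shuttle factors, UBB, a polyubiquitin gene, was the one that rose. It was 3547, 3833 and 3798 TPM in siCTRL and 5264, 4955 and 4658 TPM in siVPS37ABC (0.41 ± 0.12, adjusted p = 0.0113), and 4986, 4812 and 5413 TPM in siVPS37AB. Among 10 tested genes of the p97 complex, which extracts ubiquitinated proteins from membranes, DERL1 rose in the triple knockdown (0.59 ± 0.14, adjusted p = 0.00279). For VPS37A siRNA VCP (0.27), UBXN4 (0.30) and DERL1 (0.44) rose, 3 of the 10. So did 3 of the 9 genes for ubiquitin and its shuttle factors, where 20.9% of all genes rose. The COP9 signalosome, a relative of the lid, had COPS7A as its one call of 9 in the triple knockdown (-0.61 ± 0.15, adjusted p = 0.00434).

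**Figure D5:**
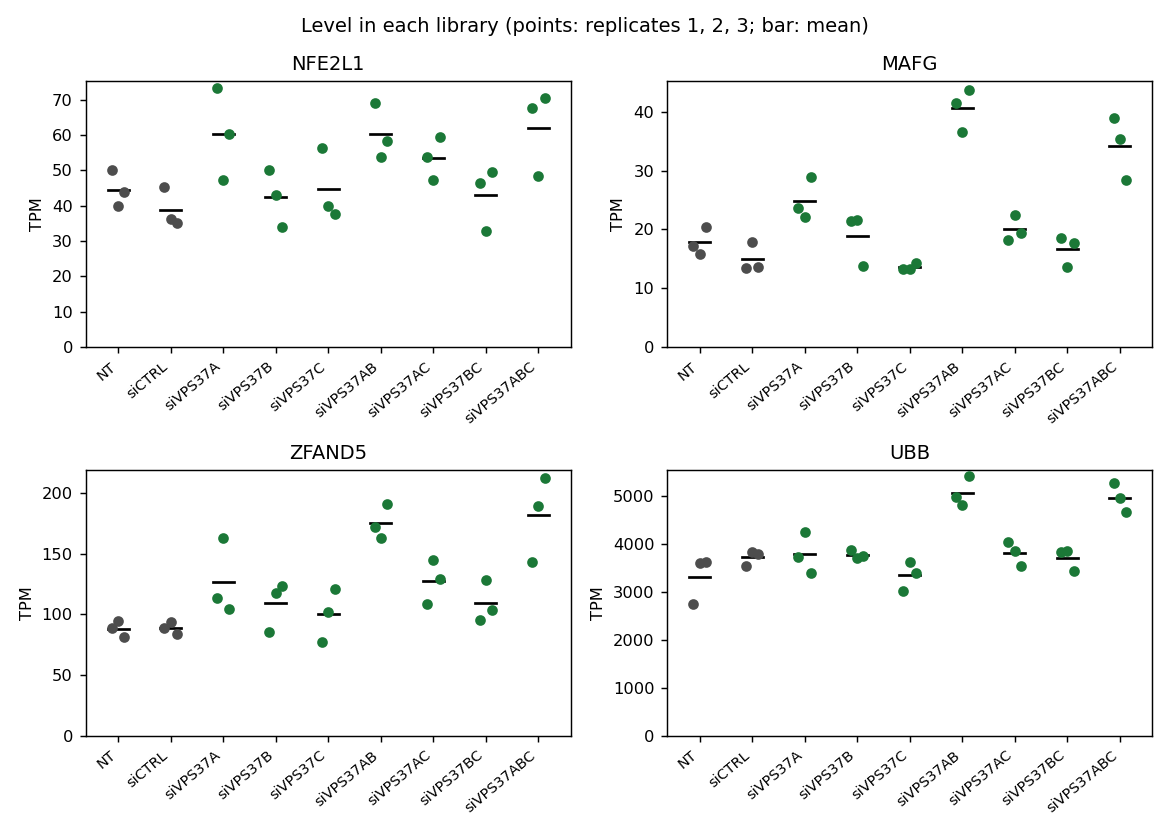
TPM of NFE2L1, MAFG, ZFAND5 and UBB in each library (points, replicates 1 to 3 from left to right) with a bar at the group mean, controls in grey and knockdowns in green, each axis starting at 0. MAFG, ZFAND5 and UBB are highest in siVPS37AB and siVPS37ABC, and NFE2L1 is higher in all 12 libraries with VPS37A siRNA than in every siCTRL library.

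The table holds 20 proteasome genes that have named pseudogenes in RefSeq and 4 with a named antisense gene (PSMA3, PSMD3, PSMD6 and PSMG3). Whether reads were assigned by strand or shared between copies is not given in the sources used here, so levels of these genes may include reads of their copies.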

How the data were processed

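The authors deposited 1 table of normalized values for 27 libraries. Each column sums to 1000000, so the deposited values were treated as TPM, and neither whole reads nor depth could be recovered. HTSeq 0.6.0, DESeq2 1.18.1 and hg19 are named, with no role, per the submitters' processing notes. Dropped were 2157 lines with no RefSeq identifier, leaving 10470 genes.

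Differences were fitted with limma 3.58.1 in R 4.3.3 on log2(TPM + 1) for the 6458 genes whose mean reached 10 TPM, with 1 mean per group, a trended variance and 18 residual degrees of freedom. Each of the 7 knockdowns was set against siCTRL, siCTRL was set against NT, and each paralog's siRNA was averaged over the 8 transfected groups (12 against 12 libraries). P-values were adjusted by Benjamini-Hochberg within each comparison, with a threshold of 0.05. Fold changes on this scale understate those of low genes.

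The replicate number is the batch in the labels. Deviations from group means correlated at a mean of 0.355 between libraries of the same number (108 pairs) and -0.175 between others (216 pairs), so the number was also fitted as a block. The alternatives tried were that block, a term for the library number, other filters and pseudocounts, quantile normalization, NT as reference, fewer groups and leaving out each library.

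Named with values were the genes past the threshold where at most 8 passed (otherwise the 5 of smallest p in each direction), the largest rise and fall of each role in siVPS37ABC, the 3 catalytic subunits with their immunoproteasome counterparts, the VPS37 genes, up to 6 called genes of each pathway list in siVPS37ABC, and NFE2L1. PSMG1, PSMD14, PSMD6, SIRT3 and the genes added by the block or called in pathway lists elsewhere were named after their values were seen. The genes and lists were chosen with earlier results of these data known.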

Additional observations from a re-analysis of the deposited data

How the results depend on the processing

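Of 318 values of called genes with 1 library left out, 280 kept their call, 38 lost it and none reversed. Of 144 values under the other settings 122 kept it, 19 lost it and 3 reversed. The cause of each move was not tested.

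With the replicate block, which pairs libraries of one number, the counts of called genes were 1 in siVPS37C, 3 in siVPS37AC, 3 in siVPS37BC, 7 in siVPS37ABC, 2 in siCTRL against NT, and 16, 4 and 9 for VPS37A, VPS37B and VPS37C siRNA. With a term for the library number they were 0 in siVPS37B, 8 in siVPS37AC, 7 in siVPS37ABC, 2 between the controls, 14 for VPS37A siRNA and 4 for VPS37C siRNA, and PSMG4 was 0.53 in siVPS37B (adjusted p = 0.165). With NT as reference they were 2, 0, 4, 4, 6, 3 and 7 in siVPS37A, siVPS37B, siVPS37C, siVPS37AB, siVPS37AC, siVPS37BC and siVPS37ABC. There PSMG4 reversed to -0.21 in siVPS37AB, -0.0021 in siVPS37BC and -0.018 in siVPS37ABC. With only the groups compared the counts were 0 in siVPS37B, siVPS37AB and siCTRL against NT, and with only the 8 transfected groups 2 for VPS37B and 4 for VPS37C siRNA. A minimum mean of 50 TPM gave 1 in siVPS37AB and 1 for VPS37C siRNA, and quantile normalization 0 in siVPS37AB. Single omissions gave 0 to 1 calls in siVPS37B, siVPS37AB and siVPS37BC, 3 to 4 in siVPS37ABC, 1 to 2 between the controls, and 7 to 12, 1 to 2 and 2 to 4 for VPS37A, VPS37B and VPS37C siRNA. Among these alternative settings, the share of all genes called is given above for the replicate block only. Counts under the others, NT as reference included, thus have no background here and do not show a gain or loss particular to proteasome genes.

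With the median level over genes in each library, core minus cap was -0.037, 0.024, -0.091, 0.016, -0.092, -0.012 and -0.064 in siVPS37A, siVPS37B, siVPS37C, siVPS37AB, siVPS37AC, siVPS37BC and siVPS37ABC and 0.052 in siCTRL against NT. The core alone was then -0.10 in siVPS37B, 0.03 in siVPS37BC and 0.11 in siVPS37ABC, and the cap 0.30 in siVPS37AC, 0.04 in siVPS37BC and 0.18 in siVPS37ABC. With NT as reference the core mean was 0.22, 0.07, 0.15, 0.26, 0.26, 0.20 and 0.25 in that order of groups, and the cap mean 0.16 for siVPS37A and siVPS37AB, 0.17 for siVPS37AC and 0.04 for siVPS37BC. These core and cap means were chosen after seeing the data. Without a known depth, counting error has no estimate.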
